A study of Ovis aries with 40 samples.

Results

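The 5 genes described here, TP63, KRT5, KRT15, NGFR and SOX2, are used as markers of airway basal cells. They were taken by gene symbol from the deposited count tables and are 5 of the 24478 genes listed there. The tables hold bulk RNA-seq of whole pieces of proximal and distal lung from American Romney sheep, taken at term, which the sample titles give as day 147, and on gestation days 65, 80, 100 and 120. Wild type (WT) sheep were naturally bred, and the WT term animals had been born before collection. CF sheep lack CFTR (CFTR-/-), the chloride and bicarbonate channel mutated in cystic fibrosis, and were cloned by nuclear transfer from 1 line of male fetal fibroblasts targeted in the second exon of the gene. Ewes of both groups were given cloprostenol, a prostaglandin analogue that synchronizes estrus, in different volumes, and the ewes that carried CF clones also had vaginal sponges. Each of the 20 combinations of genotype, region and day has 2 libraries, which makes 40 libraries in all. A proximal and a distal library with the same genotype, day and replicate number came from the same labelled animal. Libraries from day 50 were not analysed here.

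Basal cells are the stem cells of the pseudostratified epithelium of trachea and bronchi, where they sit on the basement membrane and give rise to secretory and ciliated cells. They form early in lung development from SOX2-positive airway progenitors, and distal airways and alveoli hold few of them in most mammals. TP63 is the transcription factor that defines the basal state. KRT5 and KRT15 are intermediate filament keratins of the basal layer. NGFR is the low-affinity neurotrophin receptor on the surface of basal cells and is also made by Schwann cells and by mesenchymal cells. SOX2 is a transcription factor of the whole conducting airway epithelium, so that it marks far more cells than the basal layer. In bulk tissue, fewer cells of a type and less RNA per cell cannot be told apart.

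Before term, counted reads ranged between 24670355 and 43700012 over 16 WT libraries and between 85773994 and 103139483 over 16 CF libraries. At term the range was 115937437 to 126749480 over 8 libraries, so depth differed by genotype before term and by time in both genotypes. CFTR itself was at 9.58 to 43.8 CPM (counts scaled to library size) in WT and 3.65 to 34.9 CPM in CF libraries. The medians were 25.9 and 16.5 CPM. The study reports CFTR transcripts as consistently lower in CF, possibly through decay of the mutant transcript. Reads counted over the whole gene do not test a small exonic lesion and so do not check the genotype labels. The 2 WT day 100 libraries of each region carry the same animal label. They differed by a chi-square of 44.2 per gene in proximal and 7.30 in distal lung, a measure that grows with depth, and by a root mean square of 0.928 and 0.772 on the log2 scale. This shows 2 libraries and not 2 animals, and they were kept as 2 samples. One animal label is common to the second replicate of WT at day 65 and that of CF at day 100. The study's figure legends call the replicates biological, and its results give 2 animals of each genotype per time point. The label shared at WT day 100 goes against this. The replicates of CF proximal lung at day 120 stood furthest apart over all genes, with a root mean square difference of 1.78 on the log2 scale against 0.545 to 1.17 in the other 19 conditions. The CF proximal pair at day 80 and the CF distal pair at term were also unequal for the members, and the members' edgeR calls are described below with single libraries left out.

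On Oar_v4.0, the sheep assembly of the count tables, TP63 lies on chromosome 1 from 195514420 to 195783654 (minus strand) and SOX2 on chromosome 1 from 203371696 to 203373722 (minus strand). KRT5 lies on chromosome 3 from 133537756 to 133543980 (plus strand). KRT15 lies on chromosome 11 from 41155381 to 41160459 (minus strand) and NGFR on the same chromosome from 36585419 to 36597310 (minus strand). No other gene of the tables overlaps any of the 5 spans. The counts are sums over the exons of each gene. KRT5 and KRT15 belong to a family of similar sequences, and how reads matching several keratins were treated is not given in the sources used here.

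All 5 genes were detected in all 40 libraries, with 6 to 25027 reads, and all passed the filter on low counts in every fit. Library sizes behind CPM carry TMM factors. TP63 ran from 0.116 to 18.6 CPM with a median of 1.23, and KRT5 from 0.112 to 57.7 with a median of 2.04. KRT15 ran from 0.452 to 279 CPM with a median of 5.18. NGFR ran from 0.176 to 20.9 CPM with a median of 1.12, and SOX2 from 4.72 to 67.2 with a median of 22.4. SOX2 had the smallest ratio of highest to lowest level (14.3). It was above 1 CPM in 40 of 40 libraries, against 31 for KRT15, 25 for KRT5 and 22 each for TP63 and NGFR. Per kilobase of exon, the median level was highest for SOX2 (11.05 CPM per kb), followed by KRT15 (2.30), KRT5 (0.912), NGFR (0.349) and TP63 (0.126). The ranges of genes next to each other in this order overlapped over the 40 libraries.

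KRT5 was low and uneven in WT lung. WT proximal values were 1.16 and 0.494 CPM at day 65, 0.642 and 7.09 at day 80, 2.04 and 1.13 at day 100, 4.76 and 2.65 at day 120, and 2.62 and 3.78 at term. WT distal values were 15.05 and 0.165 CPM at day 65, 1.39 and 4.21 at day 80, 2.61 and 3.85 at day 100, 0.991 and 5.12 at day 120, and 4.41 and 12.2 at term. The distal pair at day 65 was the most unequal pair of any member, with a ratio of 91.4.

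In CF sheep KRT5 reached both its lowest and its highest levels. CF proximal values were 7.998 and 2.24 CPM at day 65, 3.68 and 32.5 at day 80, 0.227 and 0.237 at day 100, 1.01 and 57.7 at day 120, and 0.970 and 2.15 at term. CF distal values were 0.829 and 0.215 CPM at day 65, 0.1204 and 0.112 at day 80, 0.206 and 0.1196 at day 100, 2.03 and 0.835 at day 120, and 0.654 and 18.0 at term. Replicate 2 was therefore far above replicate 1 in CF proximal lung at days 80 and 120 and in CF distal lung at term, while all 4 CF libraries at day 100 were below 0.3 CPM.

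KRT15, the most abundant of the keratin members per length, had the same high libraries. WT proximal values were 3.71 and 0.797 CPM at day 65, 0.944 and 13.9 at day 80, 15.8 and 1.65 at day 100, 20.1 and 2.15 at day 120, and 3.95 and 8.15 at term. WT distal values were 27.0 and 0.604 CPM at day 65, 0.452 and 8.64 at day 80, 8.07 and 16.9 at day 100, 1.03 and 11.9 at day 120, and 11.3 and 79.1 at term. The replicate with more KRT5 was also the one with more KRT15 in 18 of the 20 conditions. KRT15 in CF proximal lung was at 22.7 and 5.20 CPM at day 65, 12.96 and 77.5 at day 80, 0.651 and 1.13 at day 100, 5.16 and 206 at day 120, and 1.95 and 16.2 at term. CF distal values were 2.86 and 0.998 CPM at day 65, 0.662 and 0.767 at day 80, 0.907 and 1.17 at day 100, 8.31 and 1.73 at day 120, and 7.48 and 279 at term. The 2 highest KRT15 libraries were thus CF distal term replicate 2 and CF proximal day 120 replicate 2.

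TP63, the transcription factor of the 3, was the lowest of them per length. WT proximal values were 0.526 and 0.220 CPM at day 65, 0.604 and 2.31 at day 80, 1.82 and 1.28 at day 100, 1.88 and 0.221 at day 120, and 0.671 and 1.91 at term. WT distal values were 7.06 and 0.659 CPM at day 65, 0.362 and 3.40 at day 80, 1.10 and 1.84 at day 100, 0.248 and 2.85 at day 120, and 1.75 and 3.67 at term. The WT distal library that was highest for KRT5 was also highest for TP63. TP63 in CF proximal lung was at 6.83 and 3.31 CPM at day 65, 2.86 and 18.6 at day 80, 0.316 and 0.151 at day 100, 1.18 and 8.55 at day 120, and 0.116 and 1.29 at term. CF distal values were 1.43 and 0.293 CPM at day 65, 0.662 and 0.617 at day 80, 0.412 and 0.578 at day 100, 3.51 and 0.292 at day 120, and 0.232 and 7.93 at term. CF proximal day 80 replicate 2 held the highest TP63 level of the 40 libraries.

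The mean NGFR level was highest at day 65 in each of the 4 combinations of genotype and region. WT proximal values were 2.76 and 4.23 CPM at day 65, 1.13 and 2.39 at day 80, 1.53 and 0.902 at day 100, 0.176 and 1.11 at day 120, and 0.383 and 0.603 at term. WT distal values were 6.59 and 2.09 CPM at day 65, 1.27 and 1.57 at day 80, 0.961 and 0.670 at day 100, 0.661 and 0.4996 at day 120, and 0.614 and 1.02 at term. No WT library after day 80 reached 2 CPM. NGFR in CF proximal lung was at 19.9 and 19.4 CPM at day 65, 2.79 and 20.9 at day 80, 1.14 and 1.19 at day 100, 0.669 and 2.67 at day 120, and 0.291 and 0.419 at term. CF distal values were 14.1 and 11.8 CPM at day 65, 1.40 and 1.70 at day 80, 0.861 and 0.797 at day 100, 0.841 and 0.897 at day 120, and 0.527 and 0.178 at term. All 4 CF libraries at day 65 were above all 4 WT libraries of that day, and the share of all genes so separated is not given here.

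SOX2 was the most even of the 5 genes. WT proximal values were 46.9 and 32.7 CPM at day 65, 38.6 and 30.8 at day 80, 29.9 and 28.7 at day 100, 15.7 and 13.9 at day 120, and 16.3 and 23.6 at term. WT distal values were 67.2 and 43.6 CPM at day 65, 34.3 and 34.0 at day 80, 19.2 and 20.6 at day 100, 10.7 and 24.98 at day 120, and 23.2 and 26.7 at term. The mean of the 2 libraries was highest at day 65 and lowest at day 120 in both WT regions. SOX2 in CF proximal lung was at 33.4 and 29.2 CPM at day 65, 33.7 and 22.9 at day 80, 11.5 and 13.4 at day 100, 6.49 and 15.7 at day 120, and 5.92 and 11.5 at term. CF distal values were 31.6 and 26 CPM at day 65, 21.9 and 17.4 at day 80, 14.3 and 13.4 at day 100, 6.41 and 4.72 at day 120, and 8.12 and 17.6 at term. Both CF distal libraries were below both WT distal libraries on each of the 5 days, a separation whose share over all genes is not given here.

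**Figure D1:**
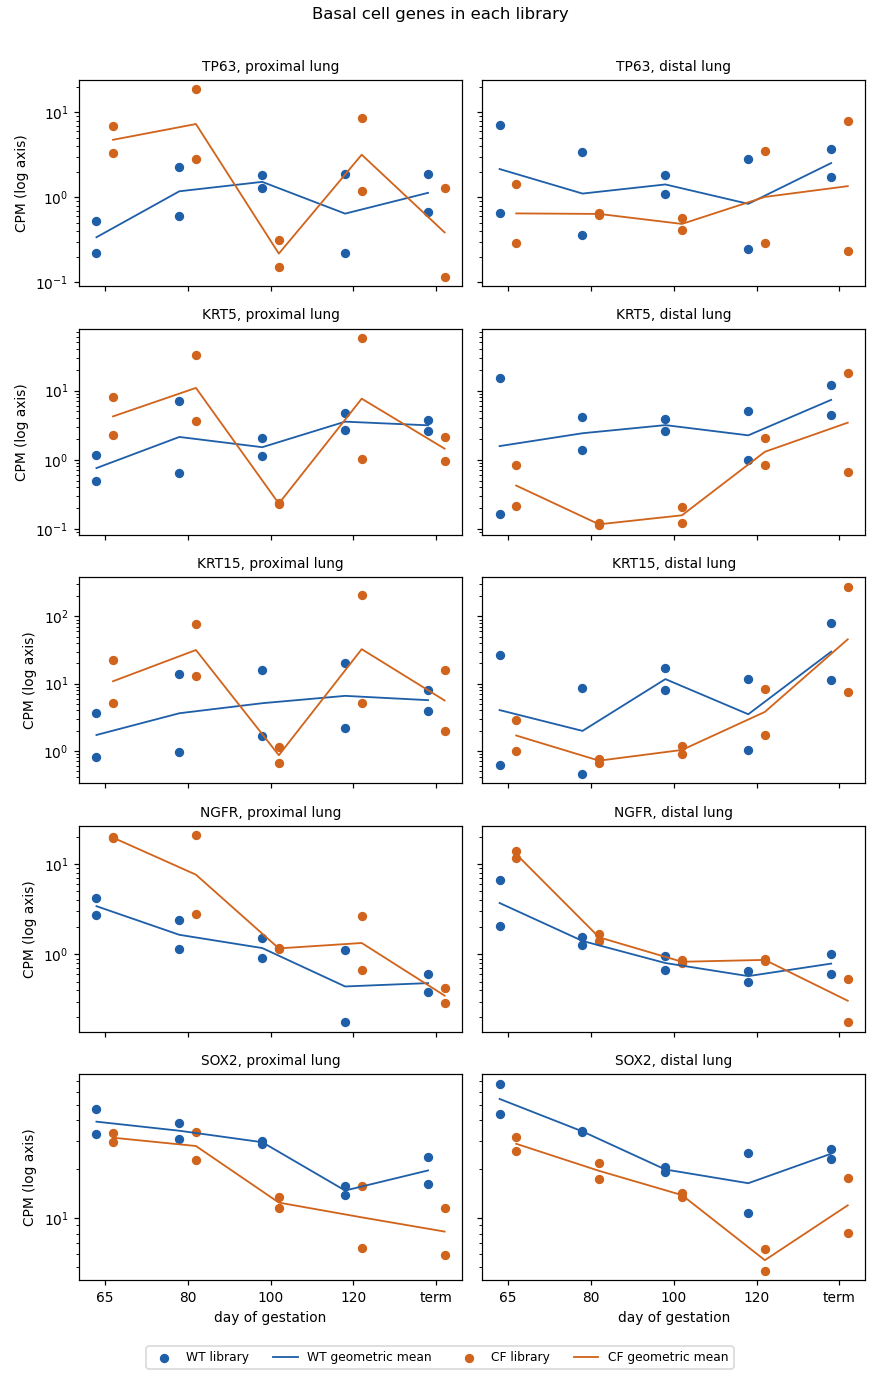
CPM on a log axis for the 5 genes (top to bottom) in proximal (left) and distal (right) lung against the day of gestation, with 1 point per library and lines through the geometric means of the 2 WT (blue) and 2 CF (orange) libraries. TP63, KRT5 and KRT15 scatter between replicates, with KRT15 reaching 279 CPM in 1 of the 2 CF distal libraries at term and 7.48 in the other, while NGFR and SOX2 are lower at term than at day 65 in all 4 courses.

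TP63, KRT5 and KRT15 differed between the 2 libraries of a condition more than almost any other gene. The pooled standard deviation (SD) between replicates of log2 CPM over the 20 conditions was 1.73 for TP63, 1.87 for KRT5 and 2.20 for KRT15, against a median of 0.45 over 20779 genes. The spread was smaller in 99.4%, 99.7% and 99.9% of all genes, respectively. Among genes of a like mean level, the spread was smaller in 98.6% of 1159 genes for TP63, 99.6% of 1125 for KRT5 and 99.8% of 1426 for KRT15. The 2 replicates differed by more than 2-fold in 16 of 20 conditions for TP63, 13 for KRT5 and 17 for KRT15, and by more than 5-fold in 9, 6 and 11. NGFR had an SD of 0.82, with 74.4% of genes below it, and SOX2 had 0.42, with 46.8% below it. The SOX2 replicates differed by at most 2.41-fold, and by more than 2-fold in 3 conditions.

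**Figure D2:**
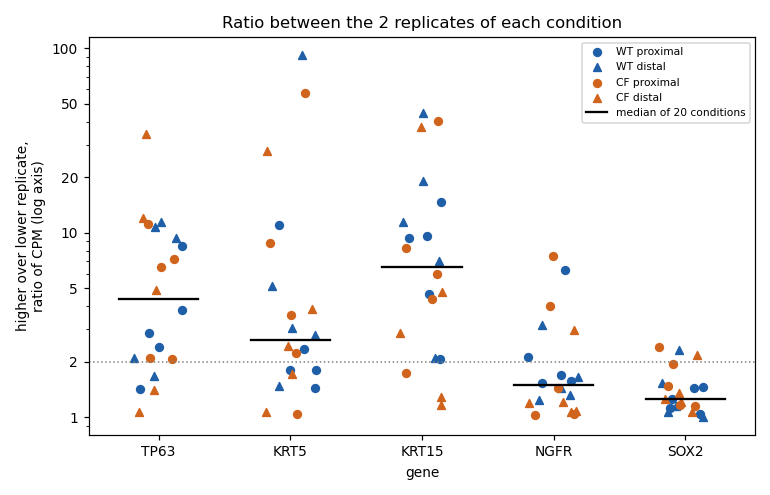
Ratio of the higher to the lower replicate in CPM (log axis) for each gene, with 1 point per condition coloured by genotype, shaped by region and spread sideways for clarity, a bar at the median of the 20 conditions and a dotted line at a ratio of 2. The largest ratios are 34.2 for TP63, 91.4 for KRT5 and 44.7 for KRT15, against 7.51 for NGFR and 2.41 for SOX2.

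The 3 genes of the basal layer moved together. The same replicate held more TP63 and more KRT5 in 18 of 20 conditions, more TP63 and more KRT15 in 18, and more KRT5 and more KRT15 in 18, where the median gene shared its higher replicate with each of them in 10. SOX2 shared its higher replicate with KRT5 in 17 conditions and with TP63 and KRT15 in 15 each. NGFR did so with TP63 in 11, with KRT5 and KRT15 in 13 each and with SOX2 in 10. Over the 40 libraries, which include 2 regions of the same animals, log2 CPM of KRT5 and KRT15 had a Pearson correlation of 0.90 (Spearman 0.89), TP63 and KRT15 of 0.83 (0.80) and TP63 and KRT5 of 0.79 (0.78). NGFR correlated with SOX2 at 0.52 (0.62), with TP63 at 0.29 (0.18) and with KRT15 at 0.00 (-0.08).

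**Figure D3:**
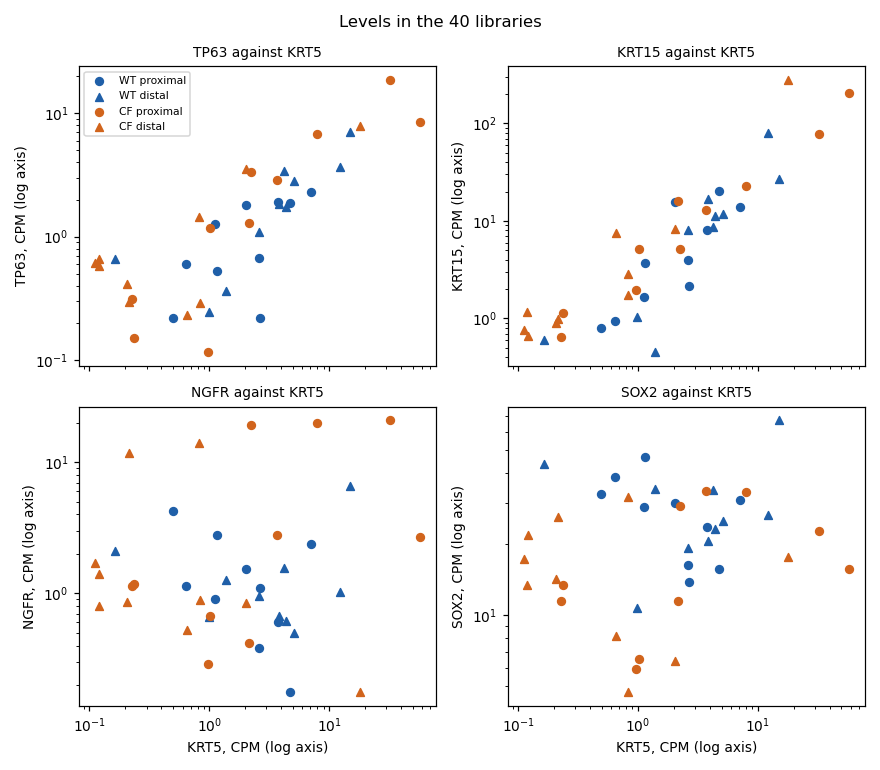
CPM of TP63, KRT15, NGFR and SOX2 against CPM of KRT5 on log axes, with 1 point for each of the 40 libraries, coloured by genotype and shaped by region. KRT15 and TP63 lie along a rising line with KRT5 (Pearson r of 0.90 and 0.79), while NGFR (0.08) and SOX2 (0.20) spread over the range of KRT5.

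Genes whose level over the 40 libraries was most like a member were named by Pearson r among 15363 genes with a mean of at least 1 CPM. For TP63 the 5 nearest were KRT17 (r = 0.84), another basal keratin, OTX1 (0.83), KRT15 (0.83), TRIM29 (0.82) and COL17A1 (0.81), the transmembrane collagen of hemidesmosomes. For KRT5 they were COL17A1 (0.90), KRT15 (0.90), LOC101104808 (0.88), TACR1 (0.88), a tachykinin receptor, and KRT13 (0.88), a suprabasal keratin. For KRT15 they were KRT13 (0.94), LOC101104808 (0.90), KRT5 (0.90), TTC25 (0.89), a gene of the ciliary dynein docking machinery, and MUC13 (0.88), a membrane mucin. NGFR had other neighbours, namely SFRP1 (0.91), a secreted WNT inhibitor, SLIT1 (0.86), PTN (0.86), SLITRK2 (0.86) and FLNC (0.86). SOX2 was nearest to EFHC2 (0.86), CCDC148 (0.86), SIX4 (0.84), BEX5 (0.84) and LOC101115345 (0.83).

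The high libraries of the 3 basal genes were mostly also high for secretory and ciliated cell genes. The summed CPM of KRT14, KRT17 and KRT6A, which are keratins of basal and stratified epithelium, was higher in the same replicate as TP63, KRT5 and KRT15 in 19 of 20 conditions for each. The summed secretory genes (SCGB1A1, SCGB3A2, MUC5B, MUC5AC, BPIFB1, WFDC2 and SPDEF) were higher in the same replicate as KRT5 in 19 conditions and as TP63 and KRT15 in 17 each. The summed ciliated cell genes (FOXJ1, DNAI1, DNAH5, TEKT1, RSPH1 and CCDC39) followed KRT5 and KRT15 in 17 conditions each and TP63 in 15. Cartilage genes followed TP63 and KRT5 in 6 conditions each and KRT15 in 8, smooth muscle genes followed them in 9, 11 and 9, and mesothelial genes in 11, 11 and 9. Among other epithelial lists, neuroendocrine genes followed TP63 and KRT5 in 8 conditions each and KRT15 in 10, and suprabasal genes followed TP63 in 12 and KRT5 and KRT15 in 14 each. Schwann cell and nerve genes, most of whose sum is ERBB3, followed TP63 and KRT5 in 15 conditions each and KRT15 in 13, and neurotrophins and co-receptors followed TP63 in 15 and KRT5 and KRT15 in 13 each. The other basal lists did not all follow the 3 genes. The summed genes of hemidesmosome and basement membrane went with TP63 and KRT5 in 10 conditions each and with KRT15 in 8, and the other basal cell genes in 7, 9 and 7 for TP63, KRT5 and KRT15. The summed genes of adhesion in stratified epithelium (DSG3, DSC3, CDH3, PERP, PKP1, TRIM29 and FAT2) went with TP63 and KRT5 in 16 conditions each. They went with KRT15 in 14 and with SOX2 in 19. NGFR followed no list in more than 14.

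The most unequal pairs show how large these joint differences were. In CF proximal lung at day 120, replicate 1 had 1.01 CPM of KRT5, 2.06 of the other basal keratins, 163 of secretory, 68.4 of ciliated and 1022 of smooth muscle genes, and replicate 2 had 57.7, 51.3, 3980, 321 and 1282. Cartilage genes in that pair were at 20.7 and 107.5 CPM and mesothelial genes at 4.43 and 15.7. In WT distal lung at day 65, KRT5 was at 15.05 and 0.165 CPM, the other basal keratins at 22 and 0.165, secretory genes at 54.7 and 7.27 and ciliated genes at 227 and 21.7. Cartilage genes in the WT pair were at 326 and 428 CPM. In CF proximal lung at day 80, KRT5 was at 3.68 and 32.5 CPM, the other basal keratins at 10.6 and 19.6 and secretory genes at 67.2 and 172. Ciliated genes in that pair went the other way, at 153 and 123 CPM. In CF distal lung at term, KRT15 was at 7.48 and 279 CPM, KRT13 at 0.854 and 16.8, ciliated genes at 118 and 383 and secretory genes at 1309 and 3201, while the summed distal epithelial genes such as SFTPC and SFTPB went the other way, at 27516 and 5745. How much large airway each piece of tissue held is not given in the sources used here, and its part in the differences between replicates was not tested.

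**Figure D4:**
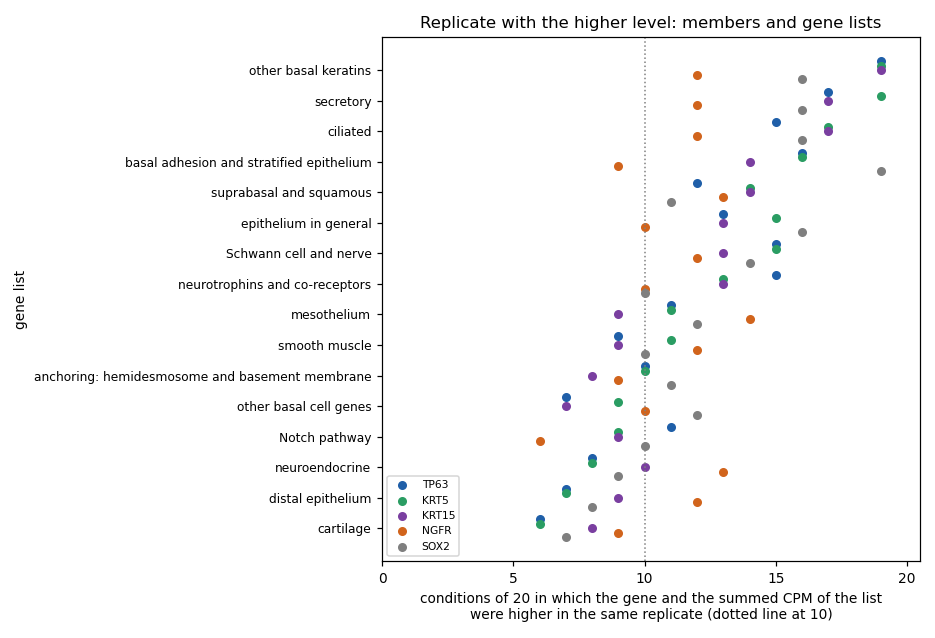
Number of conditions, of 20, in which a gene and the summed CPM of a gene list were higher in the same replicate, with 1 coloured point per gene and list and a dotted line at 10. TP63, KRT5 and KRT15 stand at 19 with the other basal keratins and at 15 to 19 with secretory and ciliated genes, and at 6 to 11 with cartilage and smooth muscle genes.

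The first comparison asked whether the members differed between proximal and distal lung. Averaged over the 5 days, none of the 5 genes passed the test between regions in WT or in CF lung, which does not show that they were equal. In WT the log2 fold change of proximal over distal lung was -1.06 for TP63 (standard error 0.68), -0.97 for KRT5 (0.67), -0.91 for KRT15 (0.79), 0.01 for NGFR (0.35) and -0.10 for SOX2 (0.18). In CF it was 0.87 for TP63 (0.66), 2.57 for KRT5 (0.72), 1.81 for KRT15 (0.81), 0.99 for NGFR (0.34) and 0.18 for SOX2 (0.18). The edgeR quasi-likelihood test with Benjamini-Hochberg adjustment over 20779 genes called 0 members in WT and 0 in CF, against 1 gene (0.00481%) and 2 genes (0.00963%) of all those tested. At an unadjusted p under 0.05 there were 0 members in WT and 3 in CF (KRT5, KRT15 and NGFR), against 1.6% and 2.59% of all genes. DESeq2 called 0 members in both. The smallest adjusted p was 0.922, for KRT5 in CF. This fit did not use the animal pairing. With the animal as a replicate block KRT5 in CF had 2.34 (adjusted p = 0.671), and 0 members were called.

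The difference between CF and WT in this contrast was also called for 0 members and for 0 of 20779 genes. KRT5 and KRT15 had an unadjusted p under 0.05, against 2.03% of all genes, and DESeq2 gave 0 calls of members. The log2 difference was 3.54 for KRT5 (standard error 0.98) and 2.72 for KRT15 (1.13). On single days edgeR called 0 of 50 tests of members and 0 genes on any day. An unadjusted p under 0.05 was found in 7 tests, against 0.78% to 5.2% of all genes by genotype and day. DESeq2 called 2, KRT5 and NGFR in CF lung at day 80. Without CF proximal day 80 replicate 2 and CF proximal day 120 replicate 2, the CF log2 fold changes of proximal over distal lung were 1.14 for KRT5, 0.57 for KRT15, 0.31 for NGFR and 0.08 for TP63. Without CF proximal day 120 replicate 1, which left the high replicate alone, 1 member was called for the mean of the days in CF (KRT5, 2.76), and 2 tests of members were called on single days. Without CF proximal day 80 replicate 1, 1 test was called on a single day.

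Within animals the members went either way. Over the 20 pairs of a proximal and a distal library from 1 labelled animal, of which both WT day 100 pairs carry 1 label and are paired by replicate number, the proximal library was the higher in 8 for TP63, 11 for KRT5, 10 for KRT15, 13 for NGFR and 11 for SOX2. KRT5 was higher in the proximal library in 3 of 10 WT pairs and 8 of 10 CF pairs. The log2 ratio of proximal to distal KRT5 ran from -3.70 to 2.26 in WT and from -3.07 to 8.18 in CF. The replicate with more of a gene in proximal lung also had more of it in distal lung in 5 of 10 combinations of genotype and day, WT day 100 included, for TP63 and KRT5, 6 for NGFR and SOX2 and 7 for KRT15.

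**Figure D5:**
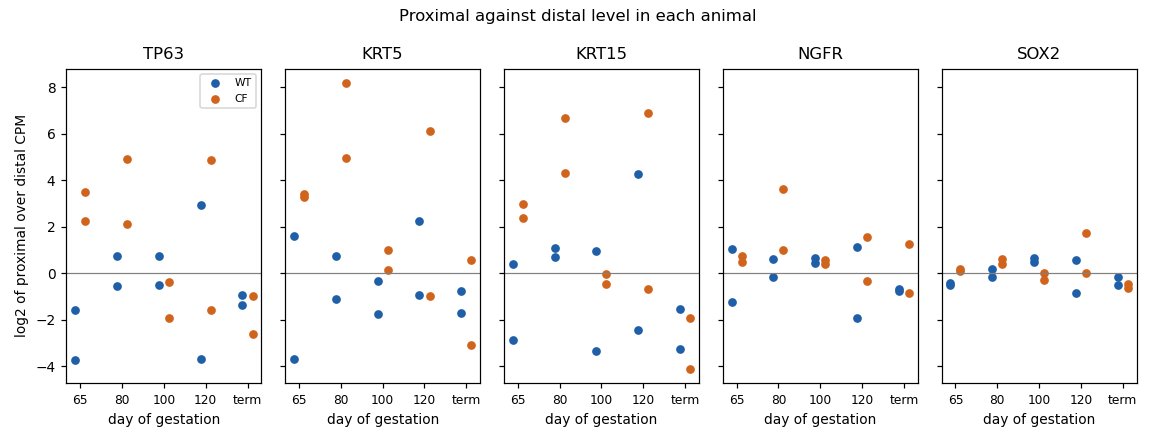
Log2 ratio of proximal to distal CPM for each gene against the day of gestation, with 1 point per pair of libraries from 1 labelled animal (WT blue, CF orange) and a line at 0. Points lie on both sides of 0 for each gene, the KRT5 ratio running from -3.70 to 2.26 in WT and from -3.07 to 8.18 in CF, and SOX2 lies closest to the line.

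No gene of the other lists passed the test between regions. In WT and in CF, edgeR called 0 of the 7 genes of hemidesmosome and basement membrane, 0 of the 3 other basal keratins, 0 of the 7 genes of basal adhesion and stratified epithelium and 0 of the 10 other basal cell genes. The 7 secretory, 6 ciliated, 7 distal epithelial and 5 smooth muscle genes, and the 5 cartilage genes tested, also had 0 calls. The median log2 fold change of proximal over distal lung in CF was 1.02 for the secretory, 0.76 for the ciliated, 1.65 for the other basal keratin, 2.66 for the suprabasal, 1.01 for the mesothelial and 0.43 for the cartilage genes, against 0.013 over all genes. In WT these medians were -0.36, -0.19, -1.12, -0.41, -0.21 and -0.27. The WT cartilage median was the value of MATN1, whose standard error was 1011. The CF suprabasal median drew on SERPINB2, whose standard error was 6318. These 2 gene values carry no usable estimate. The distal epithelial genes had 0.15 in WT and -0.071 in CF. CF proximal day 120 replicate 2 was above replicate 1 for the secretory, ciliated, basal keratin, suprabasal, mesothelial and cartilage sums, whose part in the region values was not tested.

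The second comparison asked how the members changed through gestation. NGFR and SOX2 fell between day 65 and term, while TP63, KRT5 and KRT15 followed no common course. NGFR fell in each of the 4 combinations of genotype and region, the edgeR log2 fold change of term over day 65 being -2.83 in WT proximal lung (SE 0.77, adjusted p = 0.0147), -2.44 in WT distal lung (0.60, adjusted p = 0.0105), -5.77 in CF proximal lung (1.09, adjusted p = 0.0148) and -5.15 in CF distal lung (0.54, adjusted p = 2.2e-04). Both term libraries were below both day 65 libraries in all 4. The share of all genes separated in this way is not given here, nor for SOX2 below. SOX2 fell too, with -1.003 in WT proximal lung (SE 0.23, adjusted p = 0.00639), -1.18 in WT distal lung (0.34, adjusted p = 0.0225) and -1.13 in CF distal lung (0.36, adjusted p = 0.0423). In CF proximal lung SOX2 had -1.83 (0.50, adjusted p = 0.0519), with no overlap between term and day 65. It passed the test in that course without CF proximal day 120 replicate 1 (adjusted p = 0.0109) or replicate 2 (adjusted p = 0.0116).

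Of the 20 tests of members between day 65 and term, edgeR called 7 lower and 2 higher and DESeq2 called 10. All genes tested gave edgeR calls in 45.1% in WT proximal, 42.8% in WT distal, 11.6% in CF proximal and 31.1% in CF distal lung, and calls lower at term in 21.5%, 21%, 5.83% and 15%. The share of all genes called by DESeq2 is not given here, nor beside its other counts. The 2 rises were in CF distal lung, where KRT15 rose by 6.25 (SE 1.502, adjusted p = 0.0132) and KRT5 by 4.19 (1.29, adjusted p = 0.0360) on the log2 scale, against 16.1% of genes called higher. Both rested on CF distal term replicate 2. Without that library KRT15 had 2.00 (adjusted p = 0.145) and KRT5 0.37 (adjusted p = 0.805), and the log2 fold change of TP63 went from 2.28 to -1.84. The fall of NGFR in CF distal lung was the only one of the 9 calls that held without each of the 10 libraries of its course in turn, with an adjusted p of at most 0.00166, and the only one within the limits used in the study, an adjusted p of 0.001 and a log2 fold change of 0.58. In WT distal lung NGFR had -1.39 (adjusted p = 0.0916) and SOX2 -0.84 (adjusted p = 0.123) without WT distal day 65 replicate 1, and -2.09 (adjusted p = 0.0503) and -1.05 (adjusted p = 0.0801) without WT distal term replicate 1. In WT proximal lung the NGFR call was lost without day 65 replicate 2 (-2.47, adjusted p = 0.0643) or term replicate 1 (-2.53, adjusted p = 0.0853), and the SOX2 call without day 65 replicate 1 (-0.73, adjusted p = 0.0503). In CF proximal lung the NGFR call was lost without any 1 of the 4 libraries of day 65 and term, at -6.05 to -5.54 (adjusted p up to 0.108). In CF distal lung the calls of SOX2 and KRT5 were each lost without 7 of 10 libraries and that of KRT15 without 3, SOX2 having -0.69 (adjusted p = 0.125) without term replicate 1 and -1.79 (adjusted p = 0.00891) without term replicate 2.

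In WT proximal lung both term libraries were above both day 65 libraries for TP63, KRT5 and KRT15, with log2 fold changes of 1.78, 1.94 and 1.42, none of which passed the test (edgeR adjusted p = 0.187, 0.111 and 0.437). KRT5 passed it there without day 80 replicate 1 (adjusted p = 0.0210) or replicate 2 (adjusted p = 0.0237), with the fold change at 1.95 in both. In CF proximal lung both term libraries were below both day 65 libraries for TP63 and KRT5, with -2.84 and -1.70 (adjusted p = 0.214 and 0.499). The share of all genes separated in this way is not given here for either course. In WT distal lung term and day 65 overlapped for all 3 genes. Leaving out WT distal day 65 replicate 1 moved KRT5 there from 0.10 to 5.61 (adjusted p = 0.0192), KRT15 from 1.69 to 6.19 (adjusted p = 0.0742) and TP63 from -0.54 to 2.00 (adjusted p = 0.337).

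Between neighbouring time points few tests of members passed. In WT proximal, WT distal and CF proximal lung edgeR called 0 of 20 tests each. Of all genes, 0.011%, 1.94%, 2.67% and 24.6% were called over the 4 successive intervals in WT proximal lung, 0.0164%, 1%, 2.49% and 25.8% in WT distal lung and 0%, 0%, 0.0203% and 0.356% in CF proximal lung. An unadjusted p under 0.05 was found in 2, 1 and 10 of them, and DESeq2 called 1, 0 and 8. The share of all genes at an unadjusted p under 0.05 was 5.5%, 14.8%, 16.1% and 37.6% over the intervals in WT proximal lung, 3.99%, 12.7%, 17.2% and 39.4% in WT distal lung and 1.12%, 3.92%, 7.69% and 15.1% in CF proximal lung. The DESeq2 call in WT proximal lung was SOX2 from day 100 to day 120, with -0.98, where edgeR gave -0.97 (adjusted p = 0.0659). The 8 DESeq2 calls in CF proximal lung were lower TP63, KRT5, KRT15 and NGFR from day 80 to day 100, higher TP63, KRT5 and KRT15 from day 100 to day 120 and lower KRT5 from day 120 to term, all next to a day with 1 high library. Without CF proximal day 120 replicate 1, edgeR called 4 of the 20 tests in CF proximal lung, and leaving out either WT proximal term library or WT distal day 120 replicate 2 gave 1 call in its own course.

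In CF distal lung edgeR called 2 of 20 tests, both from day 120 to term, where 23% of all genes were called, against 0%, 0% and 0.928% over the earlier intervals. KRT15 rose by 4.80 on the log2 scale (SE 1.40, adjusted p = 0.0384) and SOX2 by 1.19 (0.37, adjusted p = 0.0451). Without CF distal term replicate 2 these were 0.55 (adjusted p = 0.688) and 0.54 (adjusted p = 0.255), and without any other 1 library of the course 6 further fits lost the KRT15 call and 8 the SOX2 call, at adjusted p up to 0.131. DESeq2 called 6, and an unadjusted p under 0.05 was found in 6. Over the intervals in order, 17.4%, 4.04%, 11.8% and 40% of all genes had an unadjusted p under 0.05. With the replicate block both edgeR calls were lost, and in 1 fit of all 40 libraries the KRT15 call was lost. The day with the lowest mean KRT5 and KRT15 was day 80 in CF distal and day 100 in CF proximal lung.

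The change from day 120 to term was then compared between CF and WT. Of 10 tests of members edgeR called 0, where 1.78% of genes were called in proximal and 9.31% in distal lung. NGFR in distal lung alone had an unadjusted p under 0.05 (log2 difference -1.78, standard error 0.77, adjusted p = 0.159), and DESeq2 called 0.

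Other genes of the basal cell moved in both directions between day 65 and term, where 23.5%, 21.8%, 5.78% and 16.1% of all genes were called higher in WT proximal, WT distal, CF proximal and CF distal lung. Among the 7 genes of hemidesmosome and basement membrane, which anchor basal cells, LAMB3, a chain of laminin-332, rose from day 65 to term in all 4 courses, by 3.79 in WT proximal, 4.04 in WT distal, 2.58 in CF proximal and 3.35 in CF distal lung on the log2 scale. In these 4 courses 3, 3, 1 and 3 of the 7 genes rose and 0, 1, 0 and 0 fell. LAMA3 and ITGB4 made up the other rises, in the 3 courses other than CF proximal lung, and ITGA6 fell in WT distal lung (-0.95). Type II pneumocytes and other epithelial cells also make several of these proteins.

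Of the 10 other basal cell genes (8 tested in WT), 5, 3, 3 and 4 rose and 1, 1, 0 and 1 fell in WT proximal, WT distal, CF proximal and CF distal lung, where 23.5%, 21.8%, 5.78% and 16.1% of all genes were called higher and 21.5%, 21%, 5.83% and 15% lower. S100A2, a calcium-binding protein of basal layers, rose by 5.28, 4.28, 4.14 and 5.93 in that order, and BCAM, a laminin receptor, by 2.67, 2.98, 2.18 and 2.45. SNAI2, a transcription factor that also marks mesenchyme, fell, with -2.52 in WT proximal, -2.35 in WT distal and -1.59 in CF distal lung. The 7 genes of adhesion in stratified epithelium (6 tested in WT) gave 1 rise and 2 falls in each course, to be read against the same shares. PERP, a desmosome component, rose by 2.07, 1.42, 1.32 and 1.83. CDH3, the P-cadherin, fell, with -2.73, -2.38, -2.11 and -1.83, and so did FAT2, with -2.40, -2.17, -4.74 and -3.02. Of the 3 other basal keratins KRT17 (-5.90) and KRT6A (-5.66) fell in CF proximal lung, and 0 were called in each of the other 3 courses, a contrast between courses that was not tested.

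Many other epithelial genes rose over the same time. Of 10 general epithelial genes, 10, 8, 1 and 7 rose from day 65 to term in WT proximal, WT distal, CF proximal and CF distal lung and 0 fell, against 23.5%, 21.8%, 5.78% and 16.1% of all genes called higher. Of the 6 ciliated genes, 3, 0, 0 and 6 rose, and of the 7 secretory genes (6 tested in WT), 4, 4, 2 and 4 rose, led by SCGB1A1, and 1 fell (MUC5AC in WT proximal lung). Among neuroendocrine genes, of which 3, 2, 3 and 4 fell and 0 rose against 21.5%, 21%, 5.83% and 15% of all genes called lower, GRP had -6.68, -4.31, -7.39 and -5.82 and CHGA -3.76, -3.09, -4.03 and -4.13. The neurotrophin BDNF, a ligand of NGFR, rose in WT proximal (5.56) and WT distal lung (5.14) and SORT1, a co-receptor of NGFR, rose in WT proximal (1.07), WT distal (0.96) and CF distal lung (1.11).

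Of the 8 markers of nerve and Schwann cells, 3 fell with NGFR in CF proximal lung, where 5.83% of all genes were called lower, among them GFRA3, a receptor of the GDNF family, with a log2 fold change of term over day 65 of -3.75. The Schwann cell transcription factor SOX10 was low there, at 1.86 and 0.84 CPM at day 65. At day 80 it was at 0.17 in replicate 1 and 1.11 in replicate 2, the same order as NGFR with 2.79 and 20.9 CPM. In the other 3 courses 0, 0 and 1 of the Schwann cell genes fell from day 65 to term, where 21.5%, 21% and 15% of all genes were called lower, and 1 rose in each, where 23.5%, 21.8% and 16.1% were called higher. The gene that rose was ERBB3, which epithelium also expresses and which makes up most of the list's sum. That sum ran from 56.4 to 435 CPM in CF proximal, 62.9 to 390.2 in CF distal, 92.3 to 179 in WT proximal and 77.7 to 166 in WT distal lung. The part of nerve in the NGFR level was not tested.

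The third comparison asked whether CF and WT lung differed. SOX2 was lower in CF in both regions. Averaged over the 5 days, the log2 fold change of CF over WT was -0.70 in proximal lung (standard error 0.18, adjusted p = 0.0130) and -0.97 in distal lung (0.16, adjusted p = 4.99e-04). Both CF libraries were below both WT libraries on 2 of 5 days in proximal and 5 of 5 days in distal lung. The share of all genes separated in this way is not given here. Neither call was lost when any of the 20 libraries of a region was left out, with adjusted p of at most 0.0321 and 0.00185, nor without both unusual CF proximal libraries (-0.80, adjusted p = 0.00224). The distal difference also lay within the limits used in the study. On single days SOX2 was called in distal lung at day 120, with -1.67 (0.38, adjusted p = 0.0218), where 4.38% of genes were called. This call was lost without WT distal day 120 replicate 2 (-0.95, adjusted p = 0.254), CF distal day 120 replicate 1 (-1.92, adjusted p = 0.0525) or CF distal day 120 replicate 2 (-1.45, adjusted p = 0.0736).

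NGFR was higher in CF than in WT proximal lung by 1.21 on the log2 scale (SE 0.40, edgeR adjusted p = 0.0437). This call was lost with the WT day 100 libraries, which carry 1 animal label, summed. The difference was largest at the early days, with 2.49 at day 65 and 2.74 at day 80 (adjusted p = 0.280 for both). The call was lost in 17 of the 20 fits without 1 library, with values of 0.79 to 1.33 in them. Without CF proximal day 80 replicate 2 the value was 0.79 (adjusted p = 0.128), and without this library and CF proximal day 120 replicate 2 it was 0.53 (adjusted p = 0.212). In distal lung NGFR had 0.23 (0.24, adjusted p = 0.494) over the 5 days, 1.59 at day 65 and -1.18 at term, and the adjusted p of these single days were 0.0956 and 0.153. Of the 8 Schwann cell genes 1 was higher and 0 lower in CF proximal lung, near the 13.9% of all genes called higher, with a median of 1.30, and in distal lung CDH19 was higher by 2.45 with a median of 0.14 over 7 genes.

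KRT5 was lower in CF than in WT distal lung, at -2.72 on the log2 scale (SE 0.68, edgeR adjusted p = 0.00713). Both CF libraries were below both WT libraries on 2 of 5 days, and the share of all genes so separated is not given here. The 4 CF distal libraries at days 80 and 100 were at 0.112 to 0.206 CPM, against 1.39 to 4.21 CPM in the 4 WT libraries of those days, while WT distal day 65 replicate 2 was at 0.165 CPM. Without WT distal day 65 replicate 1 the value was -1.63 (adjusted p = 0.0567). KRT15 and TP63 pointed the same way in distal lung without passing the test, with -1.56 (0.73, adjusted p = 0.122) and -0.88 (0.66, adjusted p = 0.342). Without CF distal term replicate 2 KRT15 had -2.44 (adjusted p = 0.0238), TP63 -1.73 (adjusted p = 0.0580) and KRT5 -3.52.

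In proximal lung KRT5, KRT15 and TP63 had log2 fold changes of CF over WT of 0.80, 1.15 and 1.05 (adjusted p = 0.387, 0.294 and 0.210). Without CF proximal day 80 replicate 2 and day 120 replicate 2 these were -0.62, -0.079 and 0.26. The members called were thus 2 of 5 in each region, NGFR and SOX2 in proximal and KRT5 and SOX2 in distal lung, where 21.8% and 31.2% of all genes were called, 13.9% and 18% higher and 7.91% and 13.2% lower in CF. DESeq2 called the same 2 in each. On single days edgeR called 0 of 25 tests in proximal and 1 of 25 in distal lung, with an unadjusted p under 0.05 in 6 and 9, and DESeq2 called 3 and 4. Over the days in order, 0.167%, 0.0885%, 0.383%, 1.35% and 6.09% of genes were called in proximal and 5.23%, 5.92%, 5.3%, 4.38% and 15.2% in distal lung. At an unadjusted p under 0.05 the shares of all genes were 12.4%, 10.6%, 13%, 17.1% and 19.9% in proximal lung. In distal lung they were 21.2%, 22.7%, 21.3%, 20.1% and 30.6%. Genotype and depth before term went together, as did cloning and genotype, and their parts cannot be told apart.

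The 4 other basal lists held genes called in both directions between the genotypes, to be read against 21.8% of all genes called in proximal and 31.2% in distal lung. In distal lung KRT6A was lower in CF (-3.14 on the log2 scale, adjusted p = 0.0209) and KRT14 and KRT17 were not called, and the median of the 3 was -1.52. Among other basal cell genes S100A2 (-1.35), AQP3, a glycerol and water channel of basal cells (-1.42), and F3, tissue factor (-0.36), were lower and DLK2 (0.91) was higher in CF distal lung. In proximal lung DAPL1 (3.52) and DLK2 (2.18) were higher and 0 of the 10 were lower. PERP was lower in CF distal lung (-0.62), the single call among the 7 adhesion genes there, and 0 of 7 were called in proximal lung. Of the hemidesmosome and basement membrane genes LAMB3 (1.08 and 0.61) and DST (0.51 and 0.53) were higher in CF in proximal and distal lung, and ITGA6 (0.20) was higher in distal lung.

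Notch signalling, which steers basal progeny toward the secretory fate and also acts in vessels, had higher components in CF. Of 9 genes 5 were higher in proximal and 7 in distal lung and 0 were lower in either, where 13.9% and 18% of all genes were called higher. The ligands JAG2 (1.09 and 1.10), DLL1 (1.03 and 0.89), DLL4 (0.68 and 0.66) and JAG1 (0.36 and 0.32) and the receptor NOTCH1 (0.81 and 0.77) were called in both regions. The median of the list was 0.50 in proximal and 0.53 in distal lung, against 0.04 and 0.01 over all genes tested. Markers of the cells that basal cells give rise to were lower or not called in CF distal lung, with 2 of 6 ciliated genes (TEKT1 and RSPH1) and 2 of 7 secretory genes (MUC5AC and SCGB3A2) lower and 0 higher, where 13.2% of all genes were called lower, and their part in the KRT5 difference was not tested. Of 10 general epithelial genes 1 was lower in CF proximal lung (EPCAM, an adhesion molecule, -0.60) and 2 in CF distal lung (EPCAM, -0.54, and KRT8, -0.57). In each region 0 were higher, to be read against the shares of all genes called in CF given above. The list medians were 0.035 and -0.18, and 6 of the 10 values were positive in proximal and 3 in distal lung. Of 5 smooth muscle genes 4 were higher in each region.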

How the data were processed

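Poly(A) RNA was sequenced as 100 bp paired reads from 40 lung libraries. The deposited tables hold raw read counts per gene, made by the authors with STAR and featureCounts 1.6.3 on Oar_v4.0. The submitters' processing notes give STAR 2.6 and the study's methods a later release. Annotation release, strand setting, and treatment of mates and multiply matching reads are not given in the sources used here. Another table repeats the 20 CF columns and was not used. The members and gene lists were chosen with earlier results of these data known.

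Counts were tested with edgeR 4.0.16 (quasi-likelihood, TMM, filterByExpr with a minimum count of 10 and a minimum total of 15) in R 4.3.3. Benjamini-Hochberg adjustment ran over all genes of a fit, and an adjusted p of at most 0.05 was a call. Region was tested over all 40 libraries without the animal pairing (with it as an alternative), time within each of the 4 courses and genotype within each region. SE is the standard error of the log2 fold change. All 5 members are named, other genes by list membership and a call, and the 5 genes with the highest Pearson r to a member. Of the list genes, 101 matched by symbol and 12 by RefSeq gene identifier, and SPRR3 and CNMD had no match. The alternatives were DESeq2 1.42.0, RLE normalization, no filter, thinned counts, a replicate block, 1 fit of 40 libraries, summed WT day 100 libraries, the study's limits, and each library left out, where the region and genotype fits kept the dispersion trend of the full fit. Leaving out the CF libraries that stood apart was chosen after seeing the data. The procedure was tested on simulated data. Proximal and distal libraries of 1 animal pair by their labels, with correlations of deviations from -0.09 to 0.63, 6 of 10 above 0.1. Some list genes are not reported here.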

Additional observations from a re-analysis of the deposited data

How the results depend on the processing

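With 2 libraries per condition, the calls of members depended both on the tool and on single libraries. Under DESeq2 the calls were 2 for region by day, 1 for the intervals of WT proximal lung, 8 for those of CF proximal lung, 6 for those of CF distal lung, and 3 and 4 for genotype by day in proximal and distal lung. Under the limits used in the study they were 1 for term against day 65, 0 for the intervals of CF distal lung, 0 and 1 for the mean genotype difference in proximal and distal lung and 0 for genotype by day in distal lung. Without the filter on low counts the intervals of WT proximal lung gave 1 call. With all 40 libraries in 1 fit the intervals of CF distal lung gave 1. With the WT day 100 libraries summed the mean genotype difference in proximal lung gave 1. Without both CF proximal libraries that stood apart it gave 1, as did genotype by day there, and KRT5 and KRT15 turned to -0.62 and -0.079. The causes were not tested.

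With the replicate block the intervals of CF distal lung gave 0 calls, term against day 65 gave 7, KRT5 in WT distal lung turned to -0.36 and NGFR between regions in WT to -0.030. Apart from the animals shared by regions, the replicate numbers share only a number, with correlations from -0.42 to 0.62 in the time fits.

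Leaving out each library in turn, calls ran from 0 to 1 for region in CF, 0 to 2 for region by day, 6 to 10 for term against day 65, 0 to 1 for the intervals of WT proximal and of WT distal lung, 0 to 4 for those of CF proximal and of CF distal lung, 1 to 2 and 1 to 3 for the mean genotype difference in proximal and distal lung, 0 to 2 for genotype by day in each region and 0 to 1 for the difference in change from day 120 to term. Directions turned, within these ranges, for region in WT for NGFR (-0.37 to 0.22), SOX2 (-0.19 to 0.049) and KRT5 (-1.49 to 0.13). From day 65 to term they turned in WT distal lung for TP63 (-1.41 to 2.00), KRT15 (-0.34 to 6.19) and KRT5 (-0.88 to 5.61), in CF proximal lung for KRT15 (-2.81 to 0.80) and in CF distal lung for TP63 (-1.84 to 3.76). For the mean genotype difference they turned for KRT5 in proximal lung (-0.17 to 1.31).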
